A study of Homo sapiens with 16 samples.

Results

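The intervals described here are 2155 stretches of the human genome that carried strong H3K27 acetylation away from any gene start, while their CTCF, RAD21 and YAP1 signals stayed below fixed limits. They were chosen by rank in the vehicle libraries from a deposited table of 74404 intervals. The pool from which they came held 35320 intervals on chromosomes 1 to 22 and X that lay over 5 kb from any GENCODE release 44 transcript start and outside the YAP1 gene. Members were in the top 4000 of that pool by mean H3K27ac CPM (counts scaled to a common library total) of the 2 vehicle libraries, and were neither in the top 4000 by CTCF, nor in the top 4000 by RAD21, nor in the top 1000 by YAP1. Of the 4000 most acetylated distal intervals, 1618 were removed through RAD21, 890 through CTCF and 780 through YAP1, and an interval could be removed by several of these limits. RAD21 alone removed 548, YAP1 alone 137 and CTCF alone 87.

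The libraries were made by CUT&Tag, in which an antibody directs a transposase to its target on chromatin so that nearby DNA is tagged and sequenced. All groups were HEK293 cells, a human embryonic kidney line, of the eGFP-YAP genotype, and the series design states 1 h of serum starvation before treatment. Vehicle cells received no sorbitol and their column names give a time of 0 h, whereas the other cells received 200 mM sorbitol, a hyperosmotic stress, for 1 h, so treatment and time cannot be told apart. Each of 4 targets (H3K27ac, CTCF, RAD21 and, through a GFP antibody that reads the eGFP-YAP fusion, YAP1) had 2 vehicle and 2 sorbitol libraries, which gives 8 groups and 16 libraries. All groups carry the fusion, and a library with a non-specific antibody was not analysed here. Whether replicates came from separate cultures is not given, so p-values measure only the spread between these libraries, which may be technical.

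Acetylation of this lysine of histone H3 marks active promoters and enhancers. Enhancers raise transcription of genes that can lie far away, and the contact between them is often shaped by cohesin, a ring complex with RAD21 as a subunit, which extrudes loops of chromatin until it meets the DNA-binding protein CTCF. YAP is a co-activator that moves between cytoplasm and nucleus with mechanical and osmotic conditions, and it reaches enhancers mainly through TEAD factors. Many enhancers lie inside loops, away from the CTCF sites at the anchors.

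The sequences of 7 members follow. They were picked as extremes of level or response and not as typical members, and none is a copy of the repeated sequence described further on. Each is the middle 300 bases of its interval on the plus strand of hg38, and capitals mark matches to the short motifs described further on. The first pair are from the strongest and the second strongest member by vehicle H3K27ac. PLXNA1 (chr3:127011074-127011373) and PJA1 (chrX:69082898-69083197) name the nearest protein-coding start, as do all gene names given to members here.
PLXNA1: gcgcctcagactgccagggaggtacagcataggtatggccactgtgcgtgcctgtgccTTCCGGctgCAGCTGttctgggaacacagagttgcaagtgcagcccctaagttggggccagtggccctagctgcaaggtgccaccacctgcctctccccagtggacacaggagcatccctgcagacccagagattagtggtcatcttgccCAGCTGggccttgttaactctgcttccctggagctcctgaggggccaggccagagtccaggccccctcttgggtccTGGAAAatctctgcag
PJA1: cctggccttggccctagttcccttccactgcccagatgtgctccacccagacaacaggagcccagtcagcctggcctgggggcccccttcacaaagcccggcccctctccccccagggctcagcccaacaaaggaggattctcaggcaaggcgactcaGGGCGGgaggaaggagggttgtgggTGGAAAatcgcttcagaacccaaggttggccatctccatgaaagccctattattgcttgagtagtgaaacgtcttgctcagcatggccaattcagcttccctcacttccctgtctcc
The next had one of the largest H3K27ac rises under the rule for named members. It is AQP7B (chr2:94214195-94214494).
AQP7B: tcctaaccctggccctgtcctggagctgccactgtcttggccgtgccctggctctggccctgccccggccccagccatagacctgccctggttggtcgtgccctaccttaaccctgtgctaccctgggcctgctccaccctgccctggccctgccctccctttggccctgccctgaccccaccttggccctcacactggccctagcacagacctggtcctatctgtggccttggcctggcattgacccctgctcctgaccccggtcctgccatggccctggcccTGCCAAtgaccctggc
The 2 largest falls follow. They are CBX8 (chr17:79813514-79813813), with 5 matches to the GC box on 82.3% GC, and CD300A (chr17:74454804-74455103).
CBX8: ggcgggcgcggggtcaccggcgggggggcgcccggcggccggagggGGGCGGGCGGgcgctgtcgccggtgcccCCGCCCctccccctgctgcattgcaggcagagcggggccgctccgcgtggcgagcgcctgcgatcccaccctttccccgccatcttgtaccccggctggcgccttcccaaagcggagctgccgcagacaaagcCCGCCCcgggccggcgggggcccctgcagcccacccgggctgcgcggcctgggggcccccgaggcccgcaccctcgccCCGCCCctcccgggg
CD300A: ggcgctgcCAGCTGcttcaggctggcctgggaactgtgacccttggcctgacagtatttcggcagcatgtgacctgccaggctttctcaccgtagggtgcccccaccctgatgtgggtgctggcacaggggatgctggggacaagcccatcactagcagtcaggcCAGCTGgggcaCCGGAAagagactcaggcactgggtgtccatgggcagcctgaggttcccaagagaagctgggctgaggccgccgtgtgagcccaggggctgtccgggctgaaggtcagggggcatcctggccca
The last pair had the largest rises of CTCF and of RAD21, and each is built of a short unit repeated head to tail. They are SKI (chr1:2269803-2270102) and GJD4 (chr10:35549735-35550034).
SKI: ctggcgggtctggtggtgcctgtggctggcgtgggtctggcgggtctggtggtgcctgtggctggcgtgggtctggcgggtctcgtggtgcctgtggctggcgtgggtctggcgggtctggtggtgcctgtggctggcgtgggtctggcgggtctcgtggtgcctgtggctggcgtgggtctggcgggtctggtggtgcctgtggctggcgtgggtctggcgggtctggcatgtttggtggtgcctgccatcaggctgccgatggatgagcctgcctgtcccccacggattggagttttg
GJD4: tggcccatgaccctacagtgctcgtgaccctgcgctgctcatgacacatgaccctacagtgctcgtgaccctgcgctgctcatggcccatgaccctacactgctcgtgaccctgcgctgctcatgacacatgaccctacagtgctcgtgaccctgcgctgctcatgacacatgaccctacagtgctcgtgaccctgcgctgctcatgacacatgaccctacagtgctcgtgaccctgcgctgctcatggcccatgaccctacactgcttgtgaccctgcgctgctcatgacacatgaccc

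Members were wider and richer in G and C than the rest of the pool. Their median width was 604 bp against 351 bp for the other 33165 distal intervals, and their median GC content was 55.7% against 49.8%. Introns held 1351 members (62.7%), the space between genes 699 (32.4%) and exons 105 (4.87%). The median distance to any transcript start was 14587 bp. The members had 1590 nearest protein-coding genes, of which 1241 had 1 member, and 1493 members lay within 100 kb of that gene's start. PCDH9, a protocadherin gene, was nearest to 20 members. GLI2, a transcription factor of Hedgehog signalling, TPTE and ZMIZ1 were each nearest to 8.

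About 1 member in 6 was a copy of the same repeated sequence. When members were linked through shared 20-base words, 362 formed a single linked group, 526 words recurred in at least 100 of them, and 353 members (16.4%) held at least 20 of these words. The next largest linked group had 36. The most widespread word, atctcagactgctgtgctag, was present in 313 members. Copies resembled each other over a unit that ran from -0.5 kb to 5.75 kb relative to the common word, measured as the 250-base bins in which at least 20% of the 20-base words were shared with at least 5% of the other copies. LINE-1 elements, mobile sequences present in very many human copies, are of about this length, but no repeat annotation was used here and the copies are named by shared sequence only. In hg38 as a whole, 6781 loci held enough of the words to belong, and 2256 of them overlapped an interval of the table. The split of the members by this family was chosen after seeing the data, so it is described and given no test.

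**Figure D1:**
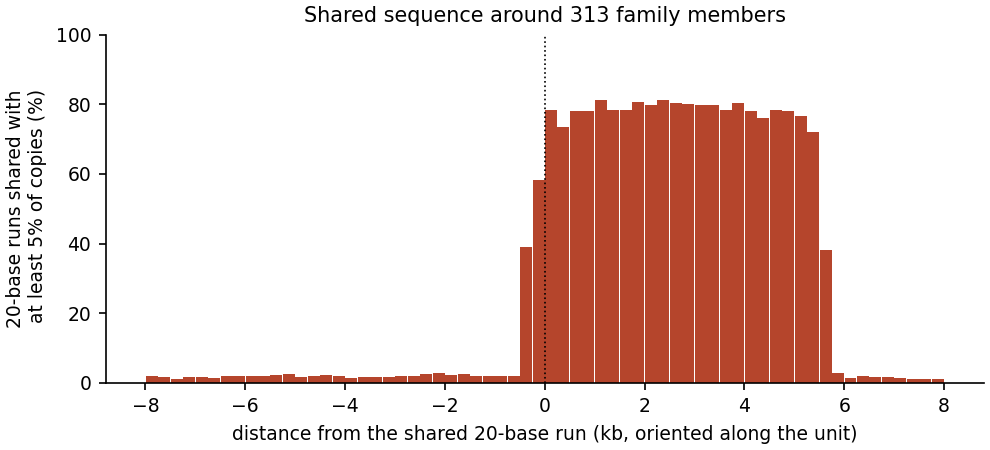
Sharing of sequence among 313 family members around their most widespread 20-base word, with distance from the word in kb on the x axis and the percentage of 20-base words shared with at least 5% of copies on the y axis, 1 bar for each 250-base bin. The bars stand high from -0.5 kb to 5.75 kb and near the floor on either side.

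Family copies were unevenly spread over classes of distal interval. They made up 340 of the 818 intervals that were in the top 4000 by H3K27ac and by RAD21 but not by CTCF (41.6%), 2 of the 2369 intervals in the top 4000 by both CTCF and RAD21 (0.0844%), and 1595 of the 33165 distal intervals that were not members (4.81%). The 33165 include the 818 and the 2369. The median 31-base word of a family member occurred 272 times in hg38 (quartiles 72.5 and 544), whereas the median for the other members was 1. In all, 1626 members (75.5%) were single-copy by this measure. Family members lay farther from genes, with a median of 30.8 kb to a start, and 7.37% of them were on chromosome X against 2.94% of the other members. A read that matches many copies cannot be placed by its letters alone, and how the authors treated such reads is not given in the sources used here.

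In vehicle, members were far more acetylated than the rest of the pool by construction. Their mean vehicle H3K27ac ran from 5.72 to 73.2 CPM with a median of 7.94, against a median of 1.45 CPM for other distal intervals. The last interval inside the H3K27ac limit had 5.72 CPM and the first outside had 5.72 CPM. At the other limits these values were 15.5 and 15.5 CPM for CTCF, 8.33 and 8.32 CPM for RAD21, and 9.80 and 9.77 CPM for YAP1, so the choice at each limit fell within a small step. Members were low in CTCF and below the limits for the others, but they did not lack them. Their median CTCF of 2.45 CPM was close to the 2.49 CPM of other distal intervals, while their median RAD21 of 4.05 CPM and YAP1 of 3.39 CPM stood above the 2.13 and 1.03 CPM of other distal intervals. Members are also wider. Summed counts per base, as a ratio of members to the other distal intervals in vehicle, were 0.455 ± 0.093 for RAD21, 0.786 ± 0.047 for YAP1 and 0.213 ± 0.010 for CTCF (SD, n = 2), so on this scale, which the strongest other intervals weigh on, members were the lower. By the rule, every interval inside the CTCF, RAD21 or YAP1 limit is among the others. With the strongest others of each target left out, 32833 remained. The ratios were then 0.718 ± 0.033 for RAD21, 1.33 ± 0.006 for YAP1 and 0.304 ± 0.004 for CTCF (SD, n = 2), so members were the higher in YAP1. The phrase "without cohesin" thus describes a rank limit and not an absence of RAD21 counts.

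Library totals were 6541568 to 8842656 counts for H3K27ac, 2838517 to 4512161 for CTCF, 1187939 to 2295019 for RAD21 and 2337173 to 3820932 for YAP1. A member had a median of 52 to 77 H3K27ac counts in each library, but 4 to 12 CTCF counts, 2 to 10 RAD21 counts and 2 to 13 YAP1 counts. With sorbitol, 349 and 466 members had no RAD21 count. The mitochondrial genome took 2.03% and 2.08% of the H3K27ac counts in vehicle, and 1.96% and 1.99% in sorbitol. For CTCF its share went from 15.7% and 19.95% to 32.8% and 33.9%, for RAD21 from 34.3% and 38.5% to 44.8% and 46.0%, and for YAP1 from 36.5% and 38.1% to 55.4% and 57.8%. For these 3 targets the part of that shift in the results below was not tested. Values per library from here on are CPM scaled by trimmed mean of M-values (TMM), which sets each target's libraries on a common scale through the bulk of the intervals.

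**Figure D2:**
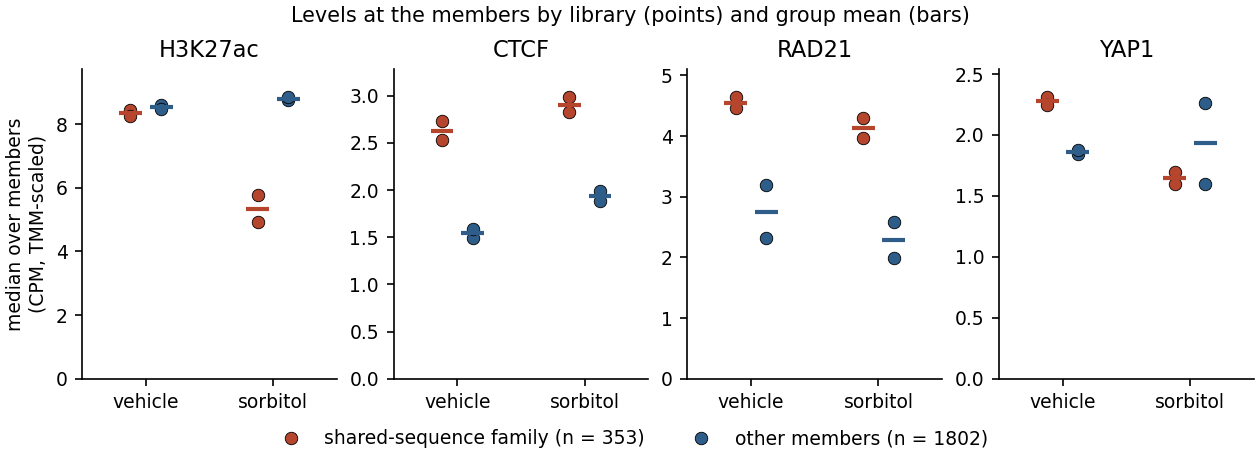
Median level over the 353 family copies and over the 1802 other members for each of the 4 targets, as TMM-scaled CPM on the y axis. Points are single vehicle and sorbitol libraries and bars their group means. H3K27ac of the family copies lies at 8.44 and 8.24 CPM in the vehicle libraries and at 4.91 and 5.77 CPM in the sorbitol libraries, while the other members lie between 8.49 and 8.84 CPM.

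Most members were still among the most acetylated distal intervals after sorbitol. With the same ranking applied to the sorbitol libraries, 1549 of 2155 (71.9%) were in the top 4000 by H3K27ac. Choosing members on 1 vehicle library and looking them up in the other gave 76.2% and 77.4%, which is the scatter between vehicle libraries alone, and the same choices looked up in single sorbitol libraries gave 66.2% to 70.0%. Of the family members 131 of 353 (37.1%) were still inside, against 1418 of 1802 others (78.7%). For RAD21, 434 members (20.1%) were inside the top 4000 in sorbitol, where the split choice gave 13.9% and 10.1% between vehicle libraries and 19.7% to 21.03% in sorbitol. The RAD21 limit in sorbitol was 4.21 CPM, which is about 5.99 and 5.15 counts, so few counts decide entry. CTCF brought 60 members (2.78%) inside its limit, against 0.490% and 1.17% between vehicle libraries, and YAP1 36 (1.67%), where the split choice gave 1.56% and 2.63% between vehicle libraries. For YAP1 the split choice gave 1.74% to 2.68% in sorbitol, a range that overlaps the vehicle values.

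**Figure D3:**
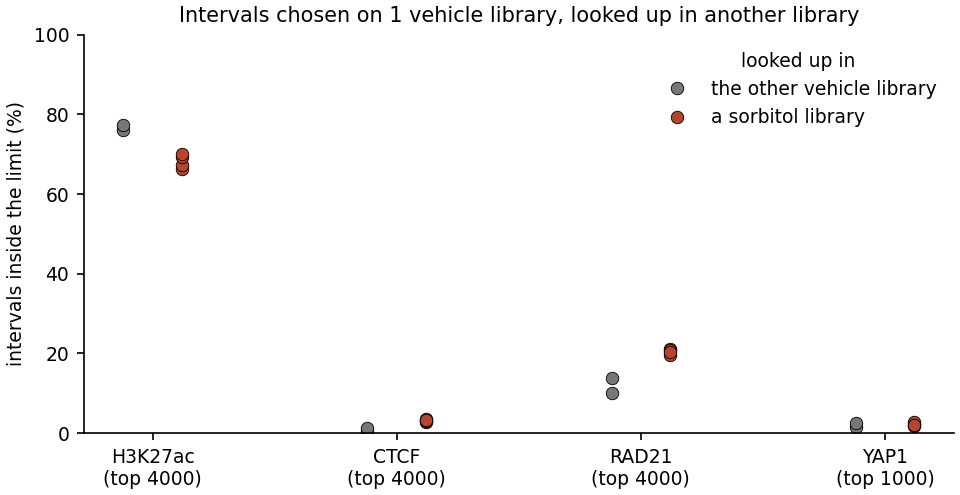
Percentage of members inside the rank limit of each target, for choices made on 1 vehicle library and looked up in the other vehicle library or in a sorbitol library. For H3K27ac the sorbitol values of 66.2% to 70.0% lie below the vehicle values of 76.2% and 77.4%, for RAD21 and CTCF they lie above, and for YAP1 they overlap.

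H3K27ac fell at 332 members and rose at 92, and 149 of the falls were in the repeated family, which held 16.4% of the members. All 2155 members passed the filter on low counts. By edgeR's quasi-likelihood test at a Benjamini-Hochberg adjusted p under 0.05, 92 members (4.27%) rose and 332 (15.4%) fell, where 8.59% of all 56601 tested intervals rose and 14.5% fell. The share that fell was thus near that of all tested intervals, which include those close to gene starts, and the share that rose below it. Of the 21037 other distal intervals tested, which carry fewer counts, 7.97% rose and 4.38% fell. Members thus fell more often than these and rose less often. The median log2 fold change (sorbitol over vehicle) was -0.12 in members, 0.02 in all tested intervals and 0.23 in the other distal intervals. The members had been selected on the vehicle libraries of this same contrast, so counts of calls and the comparison with other distal intervals are a description. With members chosen on 1 vehicle library and the response taken from the other, their medians were -0.09 and -0.05. Both sorbitol libraries lay below both vehicle libraries at 816 members (37.9%) and above at 490 (22.7%), against 30.7% and 31.5% of all tested intervals.

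Of the 353 family members, none rose and 149 (42.2%) fell by the edgeR test. At an unadjusted p under 0.05, edgeR gave 0 higher and 216 lower, and DESeq2 gave 0 higher and 64 lower after adjustment. Their median log2 fold change was -0.67 (quartiles -0.92 and -0.40), and 341 of 353 (96.6%) were below 0. Both sorbitol libraries lay below both vehicle libraries at 277 family members (78.5%). The median level of a family member was 8.44 and 8.24 CPM in the vehicle libraries and 4.91 and 5.77 CPM in the sorbitol libraries. The 1802 other members had medians of 8.60 and 8.49 CPM in vehicle and 8.75 and 8.84 CPM in sorbitol. So the group medians did not overlap in either set. The family medians were lower in sorbitol, while those of the other members were slightly higher. Outside the family, 92 members (5.11%) rose and 183 (10.2%) fell with a median of -0.03, and among the 1626 single-copy members 85 rose and 161 fell with a median of -0.02.

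Copies of the sequence that were not members fell as well, but they are not a separate check on the family members. Their sequence had a median of 460.5 genomic copies, and how reads matching many places were counted is not given. Members and other copies may therefore share reads, so the counts of copies below are not counts of independent observations. Whether the other copies fell independently of the members was not tested. Of the 1595 distal copies outside the members, 1473 were tested, 1 rose and 314 (21.3%) fell, with a median of -0.67. Of all tested intervals 14.5% fell, and of the other distal intervals outside the family 3.11%. The median level of these copies was 3.66 and 3.56 CPM in vehicle against 2.03 and 2.46 CPM in sorbitol. The 1595 copies include the 340 among acetylated intervals with RAD21 but without CTCF. Those 340 had 1 rise and 156 falls (45.9%) and a median of -0.64, so their 156 falls are among the 314. The 478 intervals of that class outside the family had 81 rises and 111 falls and a median of -0.01. Counts summed over all 2306 copies in the table were 15851 and 15573 CPM in vehicle and 9710 and 11281 CPM in sorbitol, a ratio of 0.668. Over the family members the mean sum was 3421 ± 11.7 CPM (SD, n = 2) in vehicle and 2250 ± 161 CPM (SD, n = 2) in sorbitol, a ratio of 0.658, and over the other members the ratio was 0.972. These sums are of H3K27ac. For RAD21, YAP1 and CTCF the ratios over all 2306 copies were 0.776, 0.841 and 0.957. Over the family members they were 0.939, 0.811 and 1.01, and over the other members 1.01, 1.09 and 1.39. So YAP1 was lower at these copies as well. The median difference of the H3K27ac and YAP1 responses was 0.08 in family members.

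The split by family was also present within a narrow range of GC content and at each vehicle level. Between 50% and 60% GC, 145 of 341 family members fell, against 72 of 821 other members (8.77%), whose median was -0.00. Across 4 equal groups of members by vehicle H3K27ac level, from lowest to highest, 28.1%, 39.4%, 48.2% and 56.4% of family members fell, and 4.97%, 8.05%, 8.41% and 18.9% of the others. In both sets the share that fell was highest in the group with the strongest acetylation, where counts are also highest. The family medians were -0.61, -0.71, -0.71 and -0.60, and those of the others 0.04, 0.03, -0.04 and -0.14. Vehicle levels chose the members and enter the fold change, so these groups are a description. What GC content or level adds to the split was not tested.

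Scaling and single libraries moved these counts. When libraries were scaled by their totals, the median of all tested intervals went from 0.02 to 0.17, and 218 members were called higher and 221 lower (49.7% of calls higher, against 21.7% with TMM). The member median lay -0.14 from that of all tested intervals under both scalings, and the family had 0 rises and 96 falls with a median of -0.52. Without sorbitol replicate 1 the members had 56 rises and 182 falls and the family 62 falls. Without vehicle replicate 1 the family had 88 falls, and DESeq2 called 35 members higher and 174 lower.

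**Figure D4:**
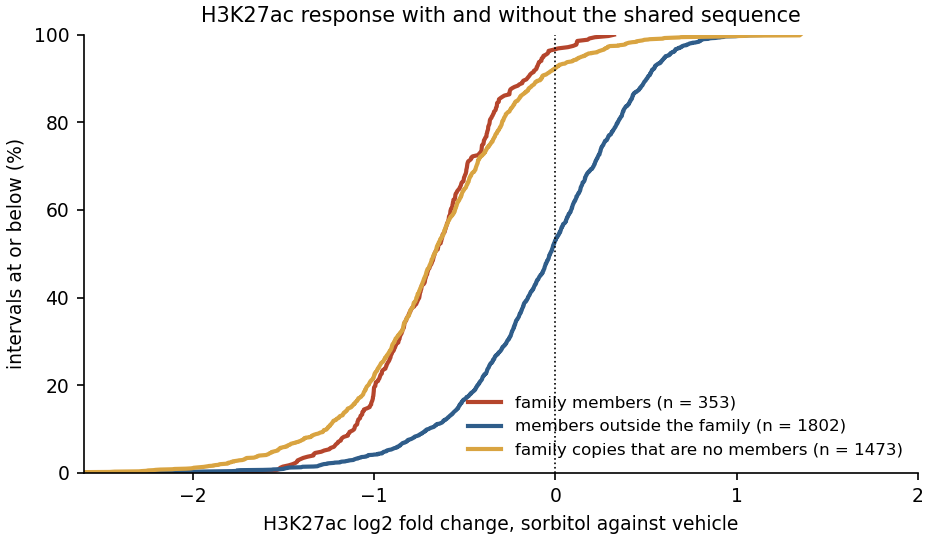
Cumulative percentage of intervals (y axis) at or below an H3K27ac log2 fold change of sorbitol against vehicle (x axis), 1 curve each for family members, members outside the family and family copies that are no members. Both family curves have their median at -0.67, left of the members outside the family at -0.03.

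Of the 6 largest rises 5 were in introns, and the log2 fold changes ran from 1.01 to 1.17. At SPRED2 (chr2:65359436-65360031, in the gene's own intron), which encodes an inhibitor of RAS-MAPK signalling, H3K27ac was 7.33 and 5.17 CPM in vehicle and 13.9 and 14.2 CPM in sorbitol, a log2 fold change of 1.17 ± 0.24 (SE; edgeR adjusted p = 0.000243). At AQP7B (chr2:94214140-94214549), in intergenic sequence with a median of 10 genomic copies, the values were 7.01 and 5.01 CPM against 12.49 and 14.1 CPM (1.14 ± 0.24; edgeR adjusted p = 0.000443). The third, in an intron of ENSG00000249319 (chr7:66099700-66100605), had 11.0 and 8.89 CPM against 21.1 and 20.8 CPM (1.07 ± 0.19; edgeR adjusted p = 3.28e-05). In each of these the sorbitol libraries lay above both vehicle libraries, as the naming rule required. ROBO1 (chr3:78994629-78995648, intron), named for a receptor of Slit guidance proteins, had 5.73 and 8.57 CPM against 14.3 and 15.6 CPM (1.06 ± 0.23; edgeR adjusted p = 0.00054). FNIP2 (chr4:158782737-158783360, intron), which encodes a partner of folliculin, had 9.72 and 7.27 CPM against 14.7 and 19.7 CPM (1.01 ± 0.22; edgeR adjusted p = 0.000517). In an intron of PALLD (chr4:168678851-168679559, nearest start DDX60L), the gene of the actin-binding protein palladin, it was 6.53 and 5.66 CPM against 14.5 and 10.3 CPM (1.03 ± 0.25; edgeR adjusted p = 0.0019), and without sorbitol replicate 1 that call was lost with a log2 fold change of 0.77. None of the 6 belonged to the family. In the PALLD interval 50.1% of the 12-base words recur within the interval, which makes it a tandem repeat as defined further on.

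The largest falls were deeper than the rises. At CBX8 (chr17:79813478-79813849), intergenic and 11.8 kb from the start of a gene for a Polycomb subunit, H3K27ac was 10.7 and 10.8 CPM in vehicle and 1.71 and 2.09 CPM in sorbitol, a log2 fold change of -2.50 ± 0.32 (SE; edgeR adjusted p = 1.18e-07). At CD300A (chr17:74454787-74455121), named for an inhibitory receptor of immune cells, it was 11.5 and 7.92 CPM against 3.74 and 0.614 CPM (-2.10 ± 0.42; edgeR adjusted p = 0.000446), and the sorbitol libraries lay far apart there. DESeq2 did not call that fall. A member in LINC01503 (chr9:129352855-129353228, intron, nearest start IER5L) had 7.96 and 8.57 CPM against 1.49 and 2.46 CPM (-2.07 ± 0.35; edgeR adjusted p = 1.91e-05). NBDY (chrX:56777976-56778348, intron), which encodes a microprotein of P-bodies, had 8.28 and 9.54 CPM against 1.60 and 3.32 CPM (-1.87 ± 0.34; edgeR adjusted p = 5.04e-05). At WDR11 (chr10:120949742-120950422) they were 8.28 and 5.98 CPM against 2.45 and 1.72 CPM (-1.75 ± 0.36; edgeR adjusted p = 0.000302). The only family copy among the 6 was in an intron of ALDH1A2 (chr15:58125929-58126478, nearest start AQP9), the gene of a retinoic acid synthesis enzyme, with 10.8 and 12.3 CPM against 3.63 and 3.19 CPM (-1.75 ± 0.28; edgeR adjusted p = 6.25e-06). Its median 31-base word occurs 572 times in hg38. In all 6 the sorbitol libraries lay below both vehicle libraries, as the naming rule required.

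**Figure D5:**
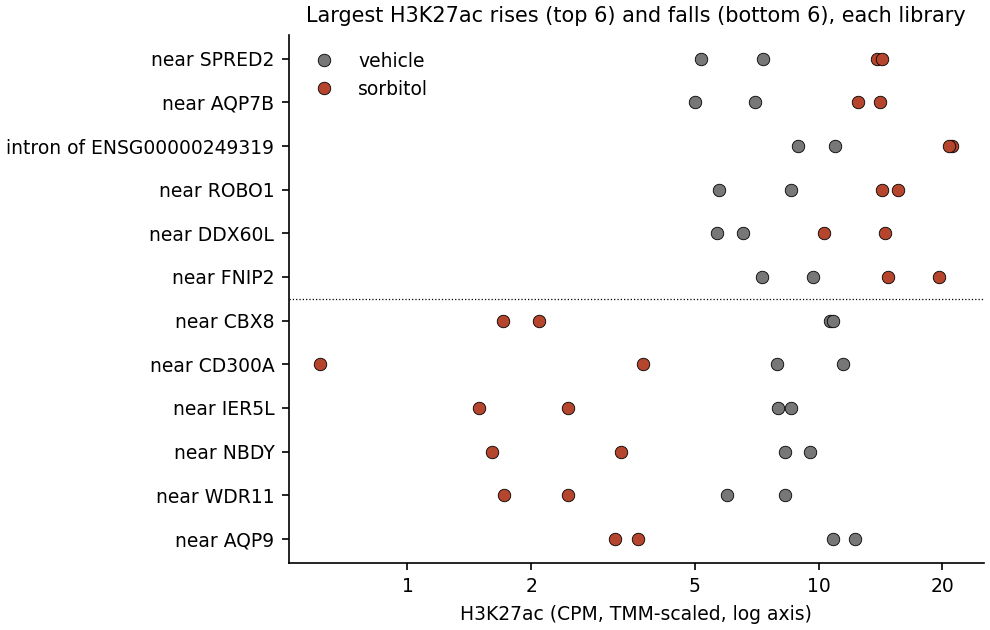
H3K27ac in the 2 vehicle and 2 sorbitol libraries at the 6 members with the largest rises and the 6 with the largest falls, in TMM-scaled CPM on a log axis. At CBX8 the vehicle points lie at 10.7 and 10.8 CPM and the sorbitol points at 1.71 and 2.09 CPM.

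The 4 strongest members by vehicle level follow. In an exon of PLXNA1 (chr3:127010352-127012095), a semaphorin receptor gene, H3K27ac was 74.9 and 79.0 CPM in vehicle and 56.8 and 56.9 CPM in sorbitol (log2 fold change -0.44 ± 0.09; edgeR adjusted p = 0.000237). In an exon of TTC34 (chr1:2641672-2643352, nearest start MMEL1) it was 48.7 and 55.4 CPM against 29.9 and 32.8 CPM (-0.73 ± 0.11; edgeR adjusted p = 3.39e-06). At PJA1 (chrX:69082412-69083684), 81.8 kb from the start of a ubiquitin ligase gene, it was 57.5 and 55.1 CPM against 44.9 and 48.4 CPM (-0.27 ± 0.10; edgeR adjusted p = 0.0425). The PJA1 call was lost under DESeq2, GC correction, total scaling and the removal of any of the 4 libraries. HIP1 (chr7:75638390-75639806, intron), which encodes a clathrin-binding protein, had 45.2 and 43.6 CPM against 41.6 and 38.9 CPM, and the difference did not pass the test (-0.14 ± 0.11; edgeR adjusted p = 0.368).

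Members and other distal intervals were searched on both strands, in the middle 300 bases, for short letter strings named after the factors known to bind them. A match is a description of the letters and not a binding site. Forkhead letters (TGTTTAC) were in 402 members (18.7%), against 8.41% of other distal intervals, and nearly all of that excess was in the repeated family. There 315 of 353 members (89.2%) held them, while 87 of the 1802 others did (4.83%), against 4.55% of other distal intervals outside the family. Of the members with forkhead letters 148 (36.8%) fell in H3K27ac against 10.5% of those without, but outside the family it was 12 of 87 (13.8%) against 9.97%. NFAT letters (TGGAAA) were in 62.9% of family members, 21.4% of the other members and 23.4% of other distal intervals outside the family. With the middle 200 bases in place of 300, the excess of all members over other distal intervals went from 4.69 to 0.249 percentage points for NFAT and from 10.2 to 6.69 for forkhead.

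The remaining motifs describe the members outside the family. AP-1 letters (TGANTCA) were in 14.04% of them, against 10.7% of other distal intervals outside the family, and 13 of these 253 members rose and 13 fell in H3K27ac. The GC box (GGGCGG) was in 21.03% against 12.2%, and 63 of the 379 members with it fell (16.6%), against 8.43% without. These members had a median GC content of 53.9% against 49.2% for the other distal intervals outside the family. What GC content adds to the motif shares and to the falls was not tested. ETS letters (CCGGAA) were in 5.60% against 3.67%, with 20 of 101 lower (19.8%) against 9.58% without. TEAD letters (CATTCC), which mark the main partners of YAP, were in 15.04% against 17.1%. Less common in these members than in such other intervals were also NFI letters (TTGGCA) with 11.1% against 14.6%, GATA letters (AGATAA) with 11.2% against 13.4% and homeobox letters (TAATTA) with 4.61% against 5.69%. The E-box CAGCTG was in 22.1% against 17.3%. NRF1 letters (GCGCATGC) were in 9 members and CRE letters (TGACGTCA) in 7. The CTCF consensus, allowing 1 mismatch, was in 48 members (2.23%), against 20.7% of other distal intervals and 46.3% of intervals strong in CTCF and RAD21.

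CTCF counts at members were low, and those that passed the filter did so partly through the group in which they were high. Of the 2155 members 702 passed, and edgeR called 80 of these higher and 30 lower, where 19.5% of all 39261 tested intervals were higher and 20.7% lower. Some of the rises lay in tandem repeats, defined after seeing the data as intervals in which at least 50% of the 12-base words recur within the interval. Such intervals were 16 of the 80 rises and 32 of the 702 tested. Over the whole distal pool they were 331 of 1396 CTCF rises (23.7%) and 3.39% of the tested intervals. No family member rose in CTCF by the edgeR test, with 2 at an unadjusted p under 0.05 and 0 by DESeq2, and 3 of 185 tested fell. Scaling decides the direction for CTCF, since scaling by totals gave 25 rises and 205 falls (10.9% of calls higher, against 72.7% with TMM) and moved the median of all tested intervals from -0.06 to -1.04. Without vehicle replicate 1 there were 53 rises and 11 falls, and without vehicle replicate 2 there were 42 and 7.

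The named CTCF rises started from a few counts. Within SKI (chr1:2269753-2270153, intron), which encodes a co-repressor of TGF-beta signalling, CTCF was 0.895 and 0.227 CPM in vehicle and 8.45 and 8.48 CPM in sorbitol (log2 fold change 3.71 ± 0.66; edgeR adjusted p = 0.000159), and 60.8% of the words of that interval recur in tandem. Near FGFR3 (chr4:1761370-1761569), a fibroblast growth factor receptor gene, it was 2.39 and 0.682 CPM against 20.4 and 19.8 CPM (3.56 ± 0.44; edgeR adjusted p = 1.69e-06). Near ACTG1 (chr17:81488319-81489174), the gamma-actin gene, it was 1.94 and 2.50 CPM against 26.3 and 19.8 CPM (3.38 ± 0.38; edgeR adjusted p = 4.07e-07). The ACTG1 member moved the other way in H3K27ac, with 36.6 and 29.1 CPM in vehicle and 14.3 and 16.5 CPM in sorbitol (-1.10; edgeR adjusted p = 9.7e-07). The members at CBX8 and EGR1, named for their falls in H3K27ac, also rose in CTCF, with log2 fold changes of 2.89 and 1.75 (edgeR adjusted p = 0.000247 and 0.000255). The member at NBDY fell in both, with a CTCF log2 fold change of -1.96 (edgeR adjusted p = 0.00326). SKI and FGFR3 did not pass the H3K27ac test, with log2 fold changes of 0.37 and -0.30.

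The named CTCF falls ended at 0 to 2 counts in each sorbitol library, so ratios of summed counts are given with exact 95% binomial intervals, which cover counting error only. SH3BP4 (chr2:235050969-235051527, intron) had CTCF of 4.47 and 5.68 CPM in vehicle and 0 and 0.471 CPM in sorbitol, 20.5-fold lower (3.53 to 823). FARS2 (chr6:5305696-5306716, intron), a mitochondrial tRNA synthetase gene, had 4.03 and 6.82 CPM against 0.994 and 0 CPM, 10.6-fold lower (2.81 to 89.7). At RTP4 (chr3:187412124-187412802), a family copy, it was 2.98 and 4.77 CPM against 0 and 0.942 CPM, 7.63-fold lower (1.98 to 65.1). The groups did not overlap in any of the 3, as the naming rule required, and none of the 3 passed the H3K27ac test. All 3 calls were lost without vehicle replicate 2, the one at FARS2 also under GC correction, and the one at RTP4 also without vehicle replicate 1 or sorbitol replicate 1.

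RAD21 passed the filter at 121 members. The rule had capped their vehicle RAD21, so a member could pass more easily where sorbitol counts were high, and the balance of rises and falls that follows is shaped by that choice. The median log2 fold change was 0.54 over these 121 and -0.14 without the filter. By the adjusted p, edgeR called 4 higher and 0 lower, where 3.34% of all 17011 tested intervals were higher and 1.45% lower. At an unadjusted p under 0.05, 17 were higher and 1 lower, likewise shaped by that choice, and DESeq2 called 2 higher and 0 lower. The 4 that rose all lay in tandem repeats, which made up 14 of the 121. In the whole distal pool tandem repeats were 65 of 122 RAD21 rises (53.3%) and 8.41% of the tested intervals. The count of rises was 8 without sorbitol replicate 1 and 9 without sorbitol replicate 2.

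In an intron of CCNY (chr10:35549406-35550363, nearest start GJD4), the cyclin Y gene, RAD21 was 2.87 and 2.32 CPM in vehicle and 34.4 and 25.8 CPM in sorbitol (log2 fold change 3.46 ± 0.50; edgeR adjusted p = 0.00165), and 88.7% of its words recur in tandem. In an intron of AFDN (chr6:167940235-167940972, nearest start KIF25), which encodes the junction protein afadin, it was 4.46 and 0 CPM against 31.8 and 17.9 CPM (3.08 ± 0.69; edgeR adjusted p = 0.0272). TRIP13 (chr5:899246-899803, intron), a gene of the spindle checkpoint, had 3.19 and 1.55 CPM against 12.0 and 17.9 CPM (2.48 ± 0.62; edgeR adjusted p = 0.0403). Tandem words made up 96.7% and 100% of the AFDN and TRIP13 intervals. H3K27ac differed little at these 3, with log2 fold changes of -0.04, 0.07 and 0.03 and edgeR adjusted p-values of 0.928, 0.873 and 0.938. Total scaling ended the calls at AFDN and TRIP13, and the TRIP13 call was also lost without vehicle replicate 1, vehicle replicate 2 or sorbitol replicate 2 and with the replicate number as a block.

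YAP1 passed the filter at 832 members, again partly through the group in which they were high, and edgeR called 11 higher and 8 lower, where 5.34% of all 22765 tested intervals were higher and 1.49% lower. Of the 11 rises 5 lay in tandem repeats, which were 26 of the 832. In the distal pool they were 157 of 418 YAP1 rises (37.6%) and 8.18% of the tested intervals. With scaling by totals 3 members were higher and 426 lower, and the median of all tested intervals moved from -0.04 to -1.46. Without vehicle replicate 1 there were 6 rises and 0 falls, without vehicle replicate 2 there were 10 and 0, without sorbitol replicate 1 there were 14 and 21, and without sorbitol replicate 2 there were 24 and 35. The median log2 fold change of the tested members was -0.26 with TMM and -1.66 with totals, so it was below 0 under both scalings while the balance of calls differed.

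At the largest YAP1 rise, in an exon of DNAJB6 (chr7:157411088-157411634), a co-chaperone gene, YAP1 was 2.00 and 0.750 CPM in vehicle and 17.5 and 22.4 CPM in sorbitol (log2 fold change 3.77 ± 0.49; edgeR adjusted p = 2.75e-05). The AFDN intron that rose in RAD21 had 0.923 and 1.12 CPM of YAP1 against 7.91 and 12.0 CPM (3.22 ± 0.62; edgeR adjusted p = 0.00218). In an intron of SNX8 (chr7:2278674-2279418, nearest start NUDT1), a sorting nexin gene, YAP1 was 3.85 and 1.12 CPM against 16.96 and 13.6 CPM (2.57 ± 0.51; edgeR adjusted p = 0.00275), a call that total scaling ended. None of these 3 passed the H3K27ac test. Tandem words made up 49.6%, 96.7% and 94.1% of the DNAJB6, AFDN and SNX8 intervals, and the SNX8 interval had a median of 9 genomic copies. The named falls had no sorbitol count in either library, so they are given as bounds against 3 counts in each library. ENPP6 (chr4:184208246-184208976, intron), a family copy, had YAP1 of 5.54 and 2.81 CPM in vehicle, so the sorbitol level was at least 2.04-fold lower. Near IL17B (chr5:149445721-149446202) it was 3.54 and 4.87 CPM, at least 2.05-fold lower in sorbitol, and in an intron of KIRREL1 (chr1:158010149-158010549) 3.54 and 4.50 CPM, at least 1.96-fold lower. These calls were lost without either vehicle library, and the KIRREL1 call also without sorbitol replicate 1. The ENPP6 copy also fell in H3K27ac, from 13.9 and 12.1 CPM to 7.36 and 6.88 CPM (-0.86; edgeR adjusted p = 0.00473).

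Whether H3K27ac and the other targets changed differently at a member was tested as an interaction in edgeR over both kinds of library. The H3K27ac response lay above the CTCF response at 68 members and below it at 130, where 12.3% of all 66550 tested intervals were above and 9.27% below. It lay above the YAP1 response at 53 members and below it at 22, where 3.73% of 52935 were above and 2.54% below. All 4 shares among the 2155 members, 3.16%, 6.03%, 2.46% and 1.02%, were below the background. A member had a median of 2 to 13 counts in each CTCF or YAP1 library, so few differences could be called. The interaction was fitted with TMM only. Total scaling moved the member median from 0.19 to -0.78 for CTCF, from -0.26 to -1.66 for YAP1 and from -0.12 to 0.02 for H3K27ac. How the balance of above and below depends on scaling was not tested. Of the 51 members in tandem repeats, 12 had an H3K27ac response below that of CTCF.

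Gene lists gave few members. The lists were fixed with earlier results of these data known, and a member counted where the nearest protein-coding start was of a listed gene within 100 kb. Of 12 kidney developmental transcription factors, EMX2 and PAX2 had 4 members, of which 1 fell. PAX2 (chr10:100654719-100655312), a factor of early kidney formation, had 15.8 and 16.2 CPM in vehicle and 8.54 and 7.61 CPM in sorbitol (-0.98 ± 0.21; edgeR adjusted p = 0.000542). Of 16 immediate early and AP-1 genes, ATF3 and EGR1 had 1 member each, and EGR1 (chr5:138493327-138494038), an early response transcription factor, fell from 23.3 and 19.1 CPM to 7.04 and 10.3 CPM (-1.30 ± 0.20; edgeR adjusted p = 5.17e-06). Both of these falls had sorbitol libraries well below the vehicle libraries.

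Of 20 YAP target genes 5 had 6 members, and 1 rose. It lies in an intron of TMCC2 (chr1:205284437-205285145) nearest to NUAK2, a kinase gene and YAP target, with 8.12 and 11.0 CPM in vehicle and 16.4 and 13.6 CPM in sorbitol (0.66 ± 0.21; edgeR adjusted p = 0.0224). Of 14 osmotic stress genes SLC5A3 and SLC6A6 had a member each, and the one in an intron of SLC6A6 (chr3:14452243-14453101), the taurine transporter, rose from 13.2 and 9.37 CPM to 18.7 and 17.1 CPM (0.66 ± 0.20; edgeR adjusted p = 0.0117). Both calls were lost under DESeq2 and without sorbitol replicate 1, the NUAK2 call also without vehicle replicate 1 and the SLC6A6 call also without vehicle replicate 2. Of 12 neuronal and adrenal genes HAND2 and ISL1 had 3 members, and HAND2 (chr4:173608430-173609218), a family copy in an intron of HAND2-AS1, fell from 20.9 and 26.02 CPM to 16.4 and 14.9 CPM (-0.58 ± 0.17; edgeR adjusted p = 0.00961). That call was lost under total scaling and without vehicle replicate 2 or sorbitol replicate 2. None of 16 genes of liver, blood and muscle, listed as a check of the cell type, had a member.

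Members were mostly solitary. Joined with close neighbours, where the widest gap joined was 12045 bp, they formed 1921 stretches, of which 1742 held a single member and 179 held the other 413 (19.2%). The share in such clusters was 4.89% for acetylated intervals with RAD21 but without CTCF and 18.1% for intervals strong in CTCF and RAD21. These sets held 818 and 2369 intervals against 2155 members, and a smaller set offers fewer close neighbours. The largest stretch, at GLI2 (chr2:120729723-120771952), held 6 members over 42.2 kb, with summed H3K27ac of 76.0 and 86.8 CPM in vehicle and 89.7 and 83.3 CPM in sorbitol. The groups of libraries overlapped there. Of 234 neighbouring pairs in a stretch, 162 (69.2%) had H3K27ac log2 fold changes of the same sign, and both members were called in 14 pairs, all in the same direction. Of all members 60.1% were below 0, so members that are not neighbours would also often share a sign, and that share was not computed.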

How the data were processed

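CUT&Tag was measured in 16 libraries. The authors deposited 1 table of raw read counts for a shared set of intervals, without scaling between libraries, as its whole-number values show. The submitters' processing notes name Trim Galore, FastQC, BWA 0.7.17, SAMtools, Picard, MACS2 2.2.6, bedtools 2.31.1 and hg38. Whether peaks were called on pooled reads, and how reads matching many places were counted, is not given in the sources used here. Libraries were grouped by target and treatment from their titles.

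The rule used CPM on library totals. Each target was fitted over its 4 libraries in edgeR 4.0.16 (R 4.3.3; filterByExpr, TMM, robust quasi-likelihood, two-sided) on all intervals, with Benjamini-Hochberg adjustment over all tested. Differences between targets were interaction terms. DESeq2 1.42.0, total scaling, a GC correction, no filter and single libraries left out were alternatives. The fitting script was tested on simulated data.

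Members and lists were chosen with earlier results of these data known. Named members are the 4 strongest in H3K27ac, the 6 largest called rises and 6 largest called falls in H3K27ac without overlap of groups and with a mean CPM above the median, 3 each for other targets with a mean of at least 10 counts (RAD21 had no fall), 1 to 2 for each list, and the 3 stretches with the most members, of which some are not reported here. Chromosome 8 was left out of names. Starts are printed 1-based, and annotation is GENCODE release 44. Sequence was read with pysam 0.24.0.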

Additional observations from a re-analysis of the deposited data

Results flagged for a closer look

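A difference between the H3K27ac response and that of another target, tested as an interaction in edgeR, was found at some members. H3K27ac lay above CTCF at 68 members and below it at 130. It lay above YAP1 at 53 members and below it at 22. All 4 counts are shares below those of all tested intervals, and the median CTCF response changed sign with the scaling of the libraries while that of YAP1 did not. The interaction was fitted with TMM only, so how these counts depend on scaling was not tested. No group of libraries had more than 2, so no library could be checked for standing apart from its group.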

How the results depend on the processing

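With libraries scaled by their totals, members called higher and lower were 218 and 221 for H3K27ac, 25 and 205 for CTCF, 3 and 426 for YAP1, and 2 higher for RAD21, and the median log2 fold changes became 0.0214, -0.78, -1.66 and -0.0720. DESeq2 called 35 higher and 174 lower for H3K27ac, 53 and 14 for CTCF, and 2 higher for RAD21. Without the count filter, 51 members were lower in CTCF, 8 higher in RAD21 (median -0.14) and 23 lower in YAP1 (median -0.45). A correction for GC content moved the H3K27ac median to -0.18. Choosing members on 1 vehicle library and taking the response from the other gave H3K27ac medians of -0.0929 and -0.0535 and RAD21 medians of -0.49 and -0.18. Ranking by CPM per kb left 61.1% of its members inside the H3K27ac limit in sorbitol, 2.33% inside that of CTCF and 12.7% inside that of RAD21. Among settings chosen after seeing the data, leaving out the repeated family gave 183 members lower in H3K27ac (median -0.0275), and single-copy members alone gave 161 lower (median -0.0208), with 1 rise in RAD21 and 6 in YAP1.

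Leaving out each library in turn gave 56 to 75 higher and 182 to 271 lower for H3K27ac (median -0.13 to -0.11), 42 to 97 higher and 7 to 44 lower for CTCF (0.10 to 0.21), 4 to 9 higher for RAD21 (-0.13 to 0.41), and 6 to 24 higher and 0 to 35 lower for YAP1 (-0.39 to -0.27). The members themselves numbered 2129 to 2244. Their share inside the sorbitol limit was 70.4% to 71.0% for H3K27ac, 2.88% to 3.43% for CTCF, 19.7% to 20.2% for RAD21 and 1.53% to 2.41% for YAP1. A limit of 10 kb from a start gave 2035 members, of which 1111 were the same, and ranking by CPM per kb gave 2870, of which 1431 were the same.

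Same-numbered libraries did not deviate together, with correlations of -0.005, -0.009, -0.005 and 0.005, so the numbers were not taken to pair them. With the replicate number as a block, 100 members were higher and 340 lower for H3K27ac, 61 and 19 for CTCF, 3 and 0 for RAD21, and 12 and 6 for YAP1. Of 358 values of named members under these alternatives, 318 kept direction and call and 38 lost the call. The other 2 changed sign, both at HIP1, which was not called under any setting, with 0.130 under GC correction and 0.00431 under total scaling. A member had a median of 2 to 13 counts in each CTCF, RAD21 and YAP1 library, so small changes in these were not detectable at this depth.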
